A study of Capra hircus with 8 samples.

Results

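The genes described here encode enzymes, signalling proteins and regulators, and had more transcript in skin of cashmere goats than in skin of milk goats. They are ETNPPL, PDE8B, ANXA9, CITED4, PPP2R1B and CCNJ, 6 of 18815 genes in the first count table, and 6 of 6 passed the filter on low counts that left 14085 genes. The genes were picked because of their breed difference in these libraries, so that difference is described below without a test. RNA sequencing of polyadenylated RNA was done on skin, with 1 library for each of the 2 kinds of goat in months 3, 6, 9 and 12, giving 4 cashmere goat and 4 milk goat libraries. Cashmere goats are kept for their fine undercoat and milk goats for milk. The labels name no genotype and no treatment, list the month as an age, and do not say how many animals went into a library. All spreads and p-values below therefore measure the spread between these libraries. KRT5 and KRT14, keratins of basal epidermis, were present in every library at 5923 to 9753 and 3615 to 6951 counts per 1000000 reads after TMM scaling (CPM), as was COL1A1, a collagen of the dermis, at 539 to 17749 CPM.

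The proteins act in different places. ETNPPL is an enzyme that breaks down phosphoethanolamine, a building block of membrane phospholipids. PDE8B is a phosphodiesterase that hydrolyses cyclic AMP, a second messenger that activates protein kinase A, and PPP2R1B is a scaffold on which protein phosphatase 2A, a phosphatase that removes phosphate from serine and threonine, is assembled. ANXA9 is an atypical member of the annexins, proteins that bind membranes. CITED4 binds the coactivators CBP and p300 and has no DNA-binding domain of its own, and CCNJ is a cyclin. In the hair follicle, shaft keratins and keratin-associated proteins are made by the cells that build the hair during growth, which makes them a measure of how much growing hair a skin sample holds.

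Totals lay between 7480053 and 8718429 reads in cashmere goats and between 11333734 and 13899750 in milk goats, and 3 reads, the limit set by a count of 0, correspond to 0.231 to 0.395 CPM. In milk goats at month 9 the TMM factor was 0.783, against 0.990 to 1.13 in the other 7 libraries. In bulk skin, fewer cells of a type and less RNA per cell cannot be told apart. Across all genes, 207 of 14085 (1.47%) passed an adjusted p of 0.05 as higher in cashmere goats and 468 (3.32%) as lower, 4.79% in all (edgeR quasi-likelihood test with month in the model). Leaving out any 1 library of months 3, 6 or 9 left 0 to 4 genes called in all, and leaving out the month 12 library of cashmere or of milk goats left 869 or 743. This background is given for the members' breed values, which were chosen on the same contrast. Called genes with a mean of at least 5 CPM, a symbol not starting with LOC and a higher value in cashmere goats in every month were ranked by fold change. CCNJ was the last member at 2.73-fold, and the next gene below it was CD24, a surface glycoprotein, at 2.69-fold. KAP8 (7.02-fold), SHISA2 (3.34-fold), RPL39 (2.74-fold) and KLK10 (2.73-fold) ranked above CCNJ and are not members.

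ETNPPL (gene6388) had the largest breed difference of the 6. It stood at 8.36, 14.4, 26.6 and 22.2 CPM over months 3, 6, 9 and 12 in cashmere goats, and milk goats had 1.38, 2.46, 11.95 and 0.617 CPM. Cashmere goats were higher in each month, but the milk goat library of month 9 lay above the cashmere goat library of month 3, so the groups overlapped. The means were 17.9 ± 8.11 against 4.10 ± 5.29 CPM (SD, n = 4), a 6.06-fold difference (log2 fold change 2.60 ± 0.54 SE). Counting error matters at the low end: at month 12 the comparison was 169 reads against 7, a ratio of 36.1 with an exact 95% interval of 17.1 to 91.1. At month 9 it was 232 reads against 130, a ratio of 2.22 (interval 1.79 to 2.78). These intervals come from the 2 counts and cover counting error only. The fold difference was 3.78 without the milk goat library of month 12 (log2 1.92) and 9.72 without that of month 9 (log2 3.28). Leaving out the cashmere goat library of those months instead gave a log2 of 1.96 and 3.27. With month in the model, leaving out either library of a month takes that month out of the breed difference.

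In the first count table PDE8B (gene11273) was flat over the months in milk goats and not in cashmere goats. The second count table, described below, had a rise over the months in milk goats too. Milk goats had 7.003, 6.16, 7.08 and 7.49 CPM at months 3, 6, 9 and 12, a 1.22-fold range. Cashmere goats had 9.96, 19.7, 29.6 and 35.4 CPM, a 3.56-fold range, with each month above the one before. All 4 cashmere goat libraries lay above all 4 milk goat libraries, which held for 6.46% of all genes tested, while the reverse order held for 8.02%. The means were 23.7 ± 11.2 and 6.93 ± 0.557 CPM (SD, n = 4), a log2 fold change of 1.64 ± 0.29 SE. The ratio of the breeds went from 1.42 at month 3 (interval 1.04 to 1.94) to 3.20 at month 6, 4.18 at month 9 and 4.73 at month 12 (interval 3.69 to 6.11).

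PPP2R1B (gene15589) was the most abundant member and followed the months in both breeds. Its CPM were 99.1, 169.9, 246 and 164 at months 3, 6, 9 and 12 in the cashmere goat libraries. The milk goat libraries had 33.9, 94.5, 131 and 25.9. The highest library of both breeds was that of month 9, and the milk goat library of month 9 exceeded the cashmere goat library of month 3. The means were 169.9 ± 60.2 against 71.3 ± 50.2 CPM (SD, n = 4), a 2.78-fold difference (log2 1.47 ± 0.30 SE). The breed ratio was smallest at months 6 and 9, at 1.80 and 1.88, and largest at month 12, at 6.35 (interval 5.59 to 7.24).

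ANXA9 (gene3270) was highest at month 9 in both breeds. Cashmere goats had 10.1, 9.75, 26.6 and 15.8 CPM at months 3, 6, 9 and 12, and milk goats 2.69, 4.62, 10.8 and 3.79. The milk goat library of month 9 lay above the cashmere goat libraries of months 3 and 6, and the other 3 milk goat libraries lay below all cashmere goat libraries. The means were 15.6 ± 7.86 against 5.49 ± 3.66 CPM (SD, n = 4), a 2.96-fold difference (log2 1.56 ± 0.22 SE), and the monthly ratio lay between 2.11 and 4.17.

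CITED4 (gene2406) had 16.9, 34.3, 45.1 and 27.1 CPM in cashmere goats and 4.89, 12.8, 28.8 and 4.58 CPM in milk goats at months 3, 6, 9 and 12. Month 9 was again the highest in both breeds, and 1 milk goat library, that of month 9, exceeded 2 cashmere goat libraries, those of months 3 and 12. The means of 30.9 ± 11.9 and 12.8 ± 11.3 CPM (SD, n = 4) differed 2.95-fold (log2 1.56 ± 0.29 SE). The ratio was 1.57 at month 9 (interval 1.35 to 1.82) and 5.92 at month 12 (interval 4.35 to 8.19).

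CCNJ (gene24562) was the steadiest in cashmere goats, with 9.16, 12.2, 14.5 and 14.2 CPM, a 1.59-fold range. Milk goats had 4.64, 5.01, 6.16 and 2.73 CPM, and all of these lay below every cashmere goat library. The means were 12.5 ± 2.48 and 4.63 ± 1.42 CPM (SD, n = 4), a 2.73-fold difference (log2 1.45 ± 0.26 SE). Of the 6 genes, PDE8B and CCNJ were thus the 2 whose breeds did not overlap, and both had their smallest ratio at month 3 (1.97 for CCNJ).

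**Figure D1:**
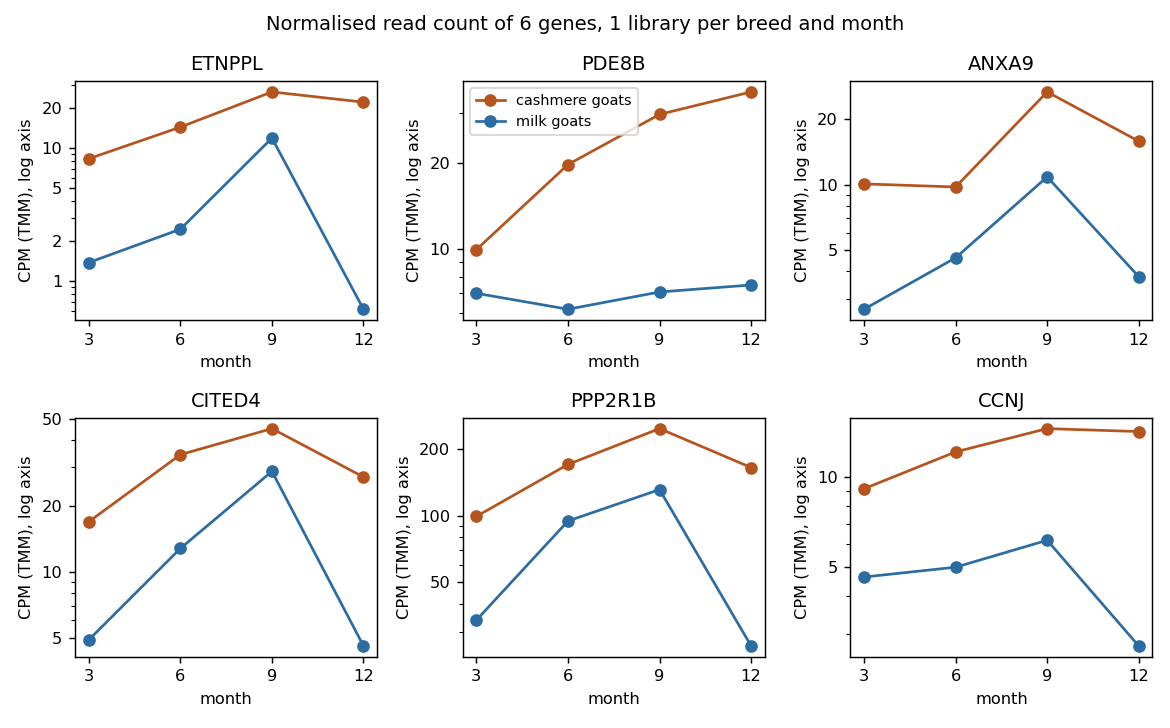
Normalised read count (CPM with TMM factors, log axis) of the 6 genes against month, 1 point per library, cashmere goats in brown and milk goats in blue. The cashmere goat point is the higher one in every month of every panel, and PDE8B in milk goats stays between 6.16 and 7.49 CPM.

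Levels can be set against each other between genes only per length, for which the authors' FPKM values were used. In cashmere goats PPP2R1B had the highest mean at 19.3 ± 6.54 FPKM (SD, n = 4) and CITED4 the next at 13.9 ± 5.18. ETNPPL (5.22 ± 2.27), ANXA9 (4.78 ± 2.36), PDE8B (3.07 ± 1.38) and CCNJ (2.90 ± 0.487 FPKM) followed. These SDs hold the change over the months. Within every cashmere goat library PPP2R1B lay above CITED4, CITED4 above ETNPPL, and ANXA9 above PDE8B. The order of ETNPPL and ANXA9, and that of PDE8B and CCNJ, changed between libraries. In milk goats PPP2R1B at 6.82 ± 4.34 and CITED4 at 4.71 ± 3.59 FPKM led again. The other 4 lay between 0.785 ± 0.0889 (PDE8B) and 1.39 ± 0.728 FPKM (ANXA9).

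The month courses were then set beside those of the hair shaft genes. Of 17 listed hair shaft keratins 8 were found by symbol. KRT31, KRT33A, KRT33B, KRT34, KRT37, KRT81, KRT83, KRT85 and KRT86 were not analysed here, so the set is partial. The 8 hair shaft keratins tested summed to 784, 2024, 1995 and 1542 CPM over months 3, 6, 9 and 12 in cashmere goats. The sums in milk goats were 239, 1416, 2337 and 68.3 CPM, so that the shaft genes were lowest in milk goats at month 12. KRT35, a keratin of the hair cortex, went from 352 to 883 CPM in cashmere goats and from 28.8 to 710 CPM in milk goats, and KRT82, of the hair cuticle, from 146 to 486 and from 12.0 to 564 CPM. KRTAP11-1 and KRTAP3-1, keratin-associated proteins, peaked at month 9 in both breeds, at 1653 and 1148 CPM in cashmere goats and at 582 and 733 CPM in milk goats. In milk goats the order of months of the mean log2 CPM of shaft keratins was 9, 6, 3, 12 from high to low. ETNPPL, CITED4, PPP2R1B and CCNJ had the same order there, while ANXA9 had month 12 above month 3 and PDE8B was flat in the first count table. In cashmere goats PDE8B was highest at month 12 and the other 5 members at month 9. Of the 8 shaft keratins 5 were highest there at month 6, 2 at month 9 and 1 at month 12, with nearly equal sums at months 6 and 9, and 4 of 4 keratin-associated proteins were highest at month 9.

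The size of the swing differed between members and shaft keratins. The mean level of the shaft keratins spanned 43.1-fold over the months in milk goats, against 3.90-fold among cashmere goats. KRT38 was at 0.163 and 0.264 CPM in milk goats at months 3 and 12, near the limit of 3 reads. In milk goats ETNPPL spanned 19.4-fold, CITED4 6.28-fold, PPP2R1B 5.05-fold, ANXA9 4.04-fold and CCNJ 2.26-fold. In cashmere goats the same genes spanned 3.18-fold, 2.66-fold, 2.48-fold, 2.73-fold and 1.59-fold. These spans of members are of CPM, while the shaft keratin level is a mean of log2 CPM with a prior count of 2. On that log2 scale ETNPPL went from -0.30 to 3.60 in milk goats, and the shaft keratin mean from 2.30 to 7.73. With each breed centred on its own mean, the root mean square distance of log2 CPM from the shaft keratin course was smallest for ETNPPL (0.87), CITED4 (0.90) and PPP2R1B (0.93). It was 1.33 for ANXA9, 1.37 for CCNJ and 1.67 for PDE8B.

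The breed ratios in single months are given beside those of both groups of hair shaft genes. The members were chosen for a high ratio in these libraries and the hair shaft genes were not, so the values are a description. Member ratios are of CPM, and those of both hair gene groups are of mean log2 CPM with a prior count of 2. At month 9 the members were 1.57-fold (CITED4) to 4.18-fold (PDE8B) higher in cashmere goats, where 54.7% of all genes were higher. The mean level of shaft keratins was 1.46-fold lower in cashmere goats at that month, with 3 of 8 higher, and that of the keratin-associated proteins 2.99-fold higher, with 4 of 4 higher. Of the shaft keratins KRT38 differed most at month 9, with 26.2 CPM in cashmere and 182 CPM in milk goats, and it lowers their mean. The mean log2 ratio of the 8 was -0.54 at that month and their median -0.29. The 8 summed to 1995 CPM in cashmere and 2337 CPM in milk goats at that month. At month 6 shaft keratins were 1.77-fold higher in cashmere goats and the members 1.80-fold (PPP2R1B) to 5.86-fold (ETNPPL). At month 12 the order turned: shaft keratins were 19.0-fold higher, above the ratios of 5 of the 6 genes, and ETNPPL alone was above them. As log2 CPM with the prior count, ETNPPL stood there at 4.49 in cashmere and -0.30 in milk goats. The shaft keratin mean stood at 6.55 and 2.30. At month 3 shaft keratins were 3.76-fold higher, and again ETNPPL alone, at 6.04-fold, exceeded them. The keratin-associated proteins were 6.995-fold, 2.91-fold and 32.2-fold higher at months 3, 6 and 12. Over all months their median log2 breed difference was 2.71, and KAP8, 1 of the 4, was called as higher (edgeR adjusted p = 0.0356). The median of the shaft keratins over all months was 1.44, with 8 of 8 positive and 0 called. Without scaling factors the shaft keratins were 1.14-fold lower at month 9, with 4 of 8 higher, and the members 2.01-fold to 5.34-fold higher.

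**Figure D2:**
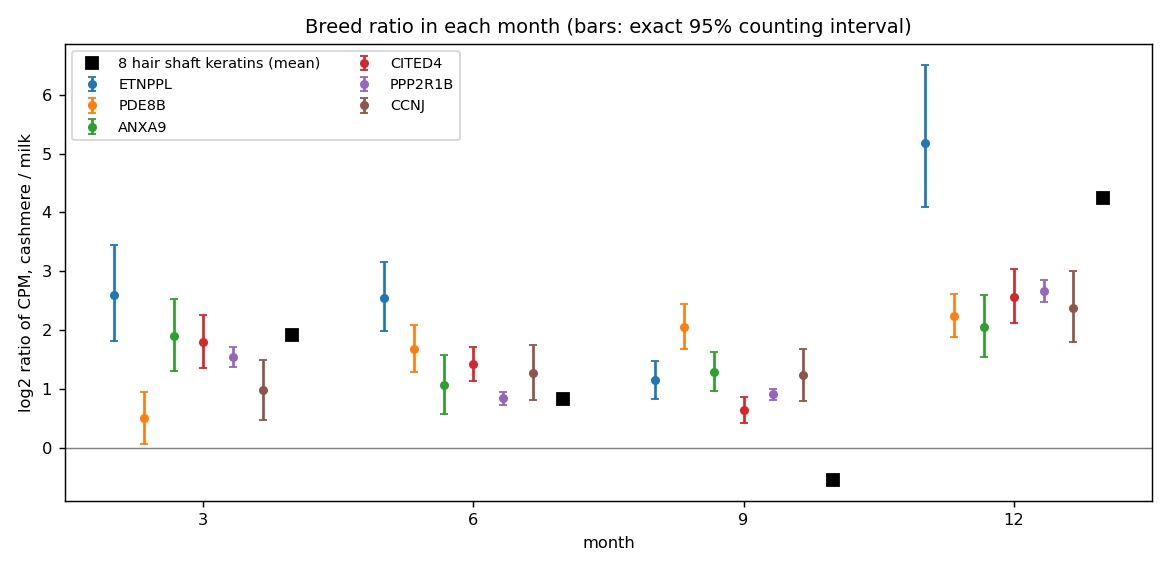
Log2 ratio of CPM, cashmere over milk goats, in each month for the 6 genes (coloured points with exact 95% counting intervals) and for the mean of 8 hair shaft keratins (black squares). At month 9 the square lies below 0 and all 6 genes lie above it, while at month 12 only ETNPPL lies above the square.

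Other fits give the breed difference with hair genes in the model and in fewer months. With the mean shaft keratin level added to the model of month and breed, the log2 breed difference was 1.60 for PDE8B (1.64 without it) and 1.28 for ANXA9 (1.56 without it). It was 1.10 for CCNJ (1.45), 0.97 for CITED4 (1.56), 0.86 for PPP2R1B (1.47) and 1.60 for ETNPPL (2.60). The shaft keratin level itself differed between the breeds, so this fit cannot separate its part from that of breed. Using months 6 and 9 only, the values were 1.74 for ETNPPL, 1.87 for PDE8B, 1.19 for ANXA9, 1.02 for CITED4, 0.88 for PPP2R1B and 1.26 for CCNJ. PDE8B was thus the only one of the 6 whose difference was larger over months 6 and 9 than over all 4 months. Other lists of cells of the follicle and skin were read in the same libraries. Of the 6 inner root sheath genes 0 were called, and they summed to 22023 to 74184 CPM in cashmere goats and 2926 to 177612 CPM in milk goats. Of these 5 were positive, with a median log2 difference of 1.26 beside 0.03 for all genes, of which 7440 of 14085 were positive. The 24 hair matrix regulators (0 called) summed to 1915 to 3281 and 1250 to 3095 CPM, and the 30 cell division genes (0 called) to 772 to 1555 and 623 to 1970 CPM. Of the hair matrix regulators 20 were positive, with a median of 0.56, and of the cell division genes 27, with a median of 0.48. Of 19 epidermal differentiation genes 3 were higher (background 1.47%) and 0 lower, and 13 were positive, with a median log2 difference of 0.24 beside 0.03 for all genes. Their sums went the other way, at 19508 to 25549 CPM in cashmere goats and 24932 to 48788 CPM in milk goats. The 15 sebaceous gland genes had a median of -0.08 with 1 called higher, and 11 sweat and apocrine gland genes a median of 0.19 with 0 called, while DCD, SCGB1D2 and SCGB2A2 of that list were not analysed here. Among 15 genes of smooth muscle, cashmere goats had 4 that were lower (background 3.32%), with summed levels of 3870 to 5441 against 6024 to 11940 CPM, and of 9 Schwann cell and nerve genes 2 were lower (151 to 228 against 189 to 386 CPM). Of 26 immediate early genes, which respond quickly to stimulation and to tissue handling, 3 were higher (2821 to 4143 against 2644 to 3314 CPM), and of 12 endothelial genes 1 was lower (298 to 714 against 299 to 897 CPM). Of 7 melanocyte genes 0 were called and 5 were positive, with a median of 1.18 and sums of 127 to 150 against 125 to 168 CPM, while TYR, TYRP1, SLC45A2 and OCA2 were below the filter. The part of the shaft keratins and of these lists in the breed values of the 6 genes was not tested.

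Month was a contrast that the choice of genes did not use, although its test shares the residual spread with the breed test. In the model of breed and month, 0 of 14085 genes passed an adjusted p of 0.05 for month with edgeR (0%), 1894 had an unadjusted p under 0.05 (13.4%), and DESeq2 called 536 (3.81%). None of the 6 genes passed with edgeR. ANXA9 and CITED4 had an adjusted p of 0.324, PPP2R1B 0.349, ETNPPL 0.359, PDE8B 0.518 and CCNJ 0.711 (edgeR quasi-likelihood test). The result for 4 genes rested on month 12: without the cashmere goat library of that month, edgeR gave adjusted p = 0.0162 for PPP2R1B, 0.0239 for CITED4, 0.0273 for ETNPPL and 0.0306 for ANXA9, where 1180 genes (8.22%) passed. Month 12 is then a single milk goat library, assumed to vary like the other months. When the milk goat library was the one left out, the same 4 lay at 0.0602 to 0.0762 with edgeR, where 109 genes (0.774%) passed. DESeq2 on all 8 libraries gave the same 4 genes adjusted p-values of 0.00185 to 0.0407.

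From month 3 to month 9 all 6 genes were higher at month 9, as were 49.9% of all genes. The log2 change was 2.51 ± 0.74 (SE) for ETNPPL, 2.03 ± 0.41 for CITED4 and 1.68 ± 0.31 for ANXA9. It was 1.66 ± 0.42 for PPP2R1B, 0.75 ± 0.41 for PDE8B and 0.53 ± 0.36 for CCNJ. With edgeR 0 genes passed in this contrast (0%), 3329 had an unadjusted p under 0.05 (23.6%), and the adjusted p-values of the members were 0.108 to 0.402. Leaving out the month 12 library of cashmere or of milk goats gave 2027 or 1920 genes in this contrast. For ANXA9 the ratio of month 9 to month 3 was 2.64 (cashmere) and 4.04 (milk), and for ETNPPL 3.18 and 8.63. For PDE8B it was 2.97 in the cashmere and 1.01 in the milk goat libraries. Between months 6 and 12, 0 genes passed with edgeR (0%, with 1071 at an unadjusted p under 0.05, 7.6%), and the members' adjusted p-values were 0.679 or higher. In milk goats CITED4 and PPP2R1B stood at month 12 at 0.358 and 0.274 times their level of month 6, and in cashmere goats at 0.790 and 0.968 times. Without the cashmere goat library of month 12, 452 genes passed in this contrast, in which month 12 was then 1 milk goat library and the other months alone gave the spread. The breed by season test asks whether a curve with a 12-month period differs between the breeds. Season is only its name here: the months may be ages of the animals, and effects of age and season were not separated. The breed by season test gave 0 genes with edgeR (904 at an unadjusted p under 0.05, 6.42%). The members had adjusted p-values of 0.555 for PPP2R1B to 0.887 for CCNJ in it. Leaving out any 1 library gave 38 to 501 genes in that test. The breed that lost a library was then fitted exactly, and the other breed alone gave the spread.

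The relatives of each gene were read from lists of the same pathway or family. Among 24 tested enzymes of ethanolamine and choline phospholipids, 2 were higher in cashmere goats and 0 lower (background 1.47% and 3.32%), with a median log2 difference of 0.15. LPCAT3, which adds polyunsaturated fatty acids to lysophospholipids, was higher by a log2 of 1.18 ± 0.18 (SE; edgeR adjusted p = 0.0276). PISD, which makes phosphatidylethanolamine from phosphatidylserine in mitochondria, was higher by a log2 of 1.03 ± 0.18 (SE; edgeR adjusted p = 0.0338). ETNK1 and PCYT2, enzymes that make and use phosphoethanolamine, stood at -0.05 and 0.11. PHYKPL, the closest relative of ETNPPL, had 0.552 ± 0.176 FPKM in cashmere goats and 0.570 ± 0.215 FPKM in milk goats (SD, n = 4).

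Of 17 other phosphodiesterases tested, 0 were called in either direction, near the background of 4.79% for so few genes, 2 had a positive breed difference, and the median log2 difference was -0.16 (-0.05 with library totals, where 6 were positive and the median of all genes was 0.14). The 23 genes of cyclic AMP synthesis and its effectors gave 0 calls and a median of -0.16 (-0.04 with library totals). The most abundant of them were PDE7A at 0.18 (edgeR adjusted p = 0.426) and PDE4A at -0.07 (edgeR adjusted p = 0.845), and the most abundant of the cyclic AMP list, the protein kinase A subunits PRKAR2A and PRKAR1A, stood at -0.22 and 0.16. The month course of the other phosphodiesterases had a median log2 change of -0.94 from month 3 to month 9, with 2 of 17 positive, against 0.75 for PDE8B. PDE8A, the other enzyme of the PDE8 group, had 3.47, 2.77, 1.50 and 1.63 FPKM in cashmere goats and 2.89, 2.58, 0.990 and 2.22 FPKM in milk goats at months 3, 6, 9 and 12. In milk goats PDE8B lay below PDE8A in 4 of 4 libraries, with a ratio of FPKM of 0.298 to 0.677. In cashmere goats that ratio was 0.401 at month 3, 0.924 at month 6, 2.57 at month 9 and 2.75 at month 12.

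Of 25 other subunits and regulators of protein phosphatase 2A, 1 was higher and 1 lower, near the background of 1.47% and 3.32%, with a median of -0.03 (0.08 with library totals). PPP2R1A, the alpha scaffold that competes for the same place in the enzyme, was higher by a log2 of 0.59 ± 0.12 (SE), or 1.50-fold (edgeR adjusted p = 0.0395). KIAA1524, an inhibitor of the phosphatase also known as CIP2A, was 2.19-fold lower (edgeR adjusted p = 0.0218). PPP2R1B had 12.0, 19.2, 27.9 and 18.1 FPKM in cashmere goats and PPP2R1A 20.2, 21.5, 22.6 and 17.3 FPKM. The beta scaffold was thus at 0.594 to 1.23 times the alpha scaffold in cashmere goats. In milk goats it was at 0.313, 0.699, 1.06 and 0.238 times the alpha scaffold at months 3, 6, 9 and 12.

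None of the 8 other annexins, of 10 CITED relatives and partners and of 24 other cyclins was called in either direction, which at a background of 4.79% says nothing particular about these families, and the medians were 0.24, -0.10 and 0.22. With library totals they were 0.35, 0.02 and 0.33. ANXA2 and ANXA1, abundant annexins of epithelia, stood at 0.27 (edgeR adjusted p = 0.347) and 0.23 (edgeR adjusted p = 0.447). CITED2, the relative of CITED4 measured here, had 28.7 ± 2.84 FPKM in cashmere goats and 18.7 ± 3.27 FPKM in milk goats (SD, n = 4), above CITED4 in all 8 libraries. The partner TFAP2A, an AP-2 transcription factor, stood at 0.13 and CREBBP at -0.29. CCND1, a cyclin of the entry into the cell cycle, stood at -0.53 (edgeR adjusted p = 0.156) and CCND2 at 0.34 (edgeR adjusted p = 0.220). CCNJL, the closest relative of CCNJ, had 12 to 24 reads in cashmere goats and 25 to 51 in milk goats.

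**Figure D3:**
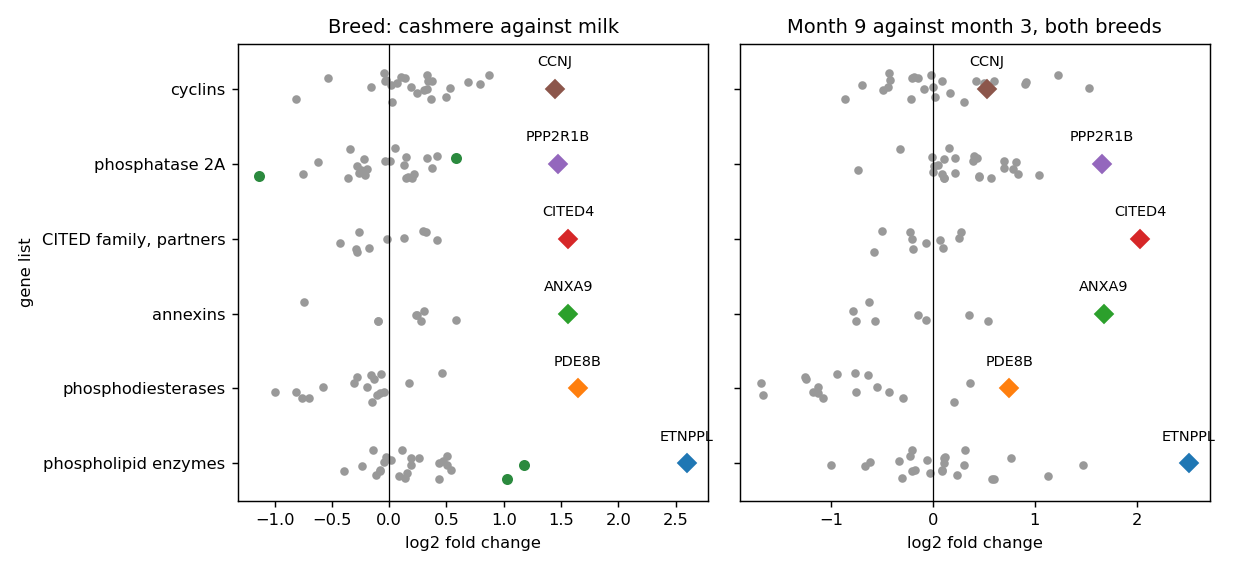
Log2 fold change between breeds (left) and from month 3 to month 9 (right) for the tested genes of 6 lists (grey; green for those past an adjusted p of 0.05 between breeds) and for the 6 described genes (diamonds), with small vertical offsets for legibility. The diamonds of the left panel were chosen on that contrast. The 2 green points above 0 in the phospholipid row are PISD and LPCAT3.

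**Figure D4:**
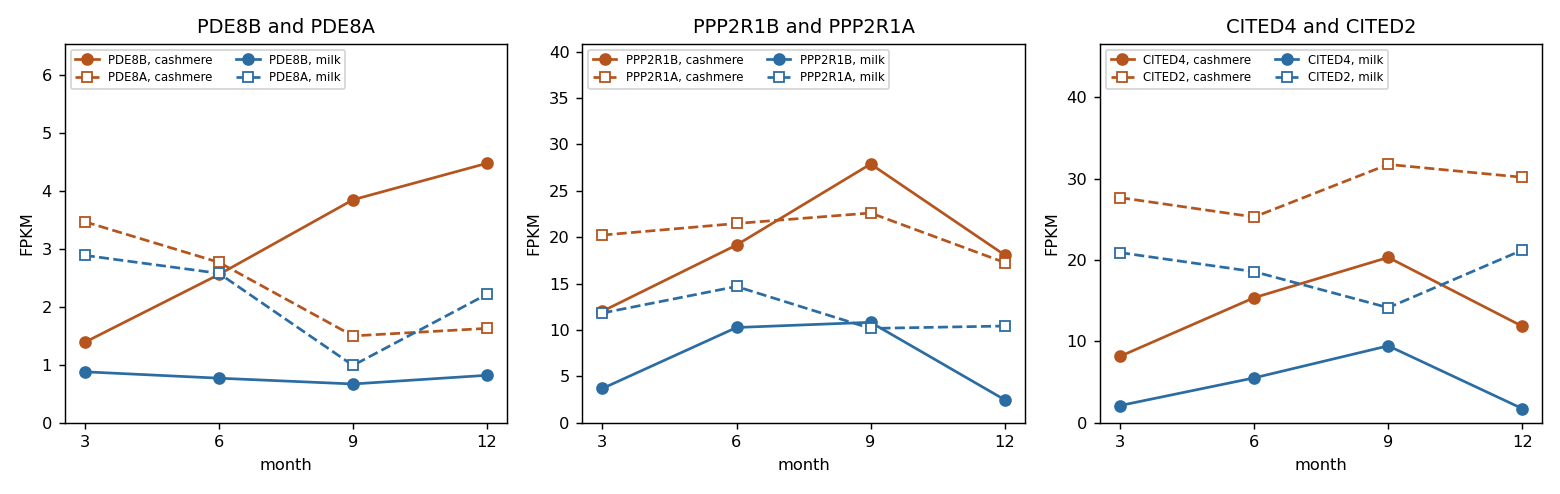
FPKM by month for PDE8B, PPP2R1B and CITED4 (filled points) and a relative of each (open squares), cashmere goats in brown and milk goats in blue, 1 library per point. PDE8B crosses PDE8A between months 6 and 9 in cashmere goats and stays below it in milk goats.

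The 6 genes were not alike among themselves. The smallest distance between any 2 of them, as the root mean square difference of log2 CPM over the 8 libraries after centring each gene, was 0.21 for CITED4 and PPP2R1B, and the largest was 1.18 for ETNPPL and PDE8B. Among 10798 genes with a mean of at least 5 CPM, leaving out the 6 genes themselves, the nearest to PPP2R1B were GJA1, the gap junction protein connexin 43 (0.15), ARC (0.18) and HMOX1, heme oxygenase (0.19). The nearest to CITED4 other than PPP2R1B were STUM (0.21), FOXE1, a forkhead transcription factor (0.23), and again GJA1 (0.23). The nearest to ANXA9 were KLK10, a kallikrein protease (0.24), DAPL1 (0.27) and GJB6, the gap junction protein connexin 30 (0.31). OAT, ornithine aminotransferase, was the nearest to both PDE8B (0.38) and CCNJ (0.22). CRCT1 (0.40) and PISD (0.44) followed for PDE8B, and MDK, the growth factor midkine (0.24), and LYPLAL1 (0.27) for CCNJ. For ETNPPL the nearest were C5H12orf56 (0.45), SLC7A8, an amino acid transporter (0.49), and DLX2, a homeobox factor (0.54) which is farther than the nearest gene of each of the other 5. These distances are descriptions over 8 libraries that share the breed difference.

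The second count table holds the same libraries counted on another gene set, and differs in the counting and not in the animals. The members were chosen as higher in cashmere goats in both tables, so their direction there is part of the choice. In it 5 of the 6 genes were found, ETNPPL under its older symbol AGXT2L1, and CITED4 was not analysed there. AGXT2L1 had 13.4, 24.9, 52.7 and 36.4 CPM in cashmere goats and 3.47, 5.42, 18.7 and 2.14 CPM in milk goats at months 3, 6, 9 and 12. Its fold difference was 5.13, against 6.06 in the first table. PPP2R1B had 199, 315, 400.3 and 297 CPM against 115, 209, 235 and 92.5 CPM, and its fold difference was 1.94 in place of 2.78. The fold difference of PDE8B was 2.46 in place of 3.12, that of ANXA9 2.48 in place of 2.96, and that of CCNJ 2.61 in place of 2.73. The folds of the 5 genes were thus smaller in the second table, where 2.97% of 14994 genes passed as higher and 4.48% as lower. The monthly ratios of PPP2R1B were 1.73, 1.51, 1.70 and 3.21 there. Those of PDE8B were 1.54, 2.49, 2.96 and 3.15, in the same order of months as in the first table. PDE8B rose with each month there in both breeds. Milk goats had 6.90, 7.74, 9.08 and 10.8 CPM, and cashmere goats 10.6, 19.3, 26.9 and 34.0 CPM.

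**Figure D5:**
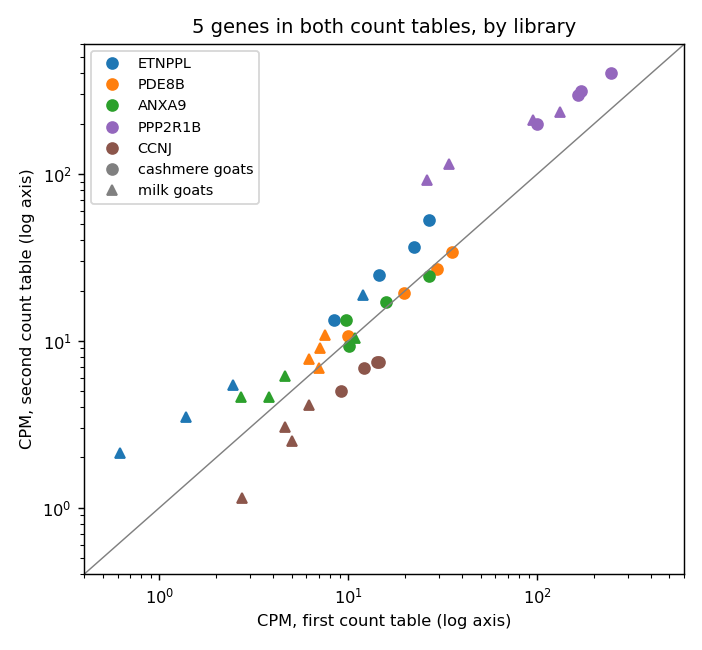
CPM of 5 genes in the second count table against CPM in the first (log axes, 1 point per library, circles for cashmere goats and triangles for milk goats, grey line for equal values). PPP2R1B and ETNPPL lie above the line and CCNJ below it in all 8 libraries.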

How the data were processed

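Libraries were grouped by the kind of goat and month given in the labels. Per the labels' protocols, RNA was extracted with TRIzol, and polyadenylated RNA was made into directional paired-end libraries. That protocol mentions embryos, although the labelled tissue is skin. The submitters' processing notes name Bowtie2 (version and genome build: not given in the sources used here). Deposited by the authors were 2 tables of raw read counts per gene (18815 and 20780 genes) and 1 of FPKM, scaled per kilobase and 1000000 reads. The second count table's gene length column was not used. The first count table and the FPKM table write cashmere as a transliterated word.

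The test on counts was that of edgeR 4.0.16, run under R 4.3.3 (filterByExpr on breed, TMM, quasi-likelihood F tests, model of month and breed with 3 residual degrees of freedom, Benjamini-Hochberg adjustment, threshold 0.05). The breed by season test used a sine and a cosine term with a 12-month period (2 residual degrees of freedom). These terms treat the months as a repeating year, which need not hold if they are ages. log2 CPM used a prior count of 2. Alternatives used DESeq2 1.42.0 and limma 3.58.1. Code was tested on simulated data. Monthly ratios have exact binomial 95% (Clopper-Pearson) intervals. Since PCR copies were not marked by molecular identifiers, reads are not independent molecules, and intervals and floors cover counting error only.

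The 6 genes and the lists were chosen with earlier results of these data known. Named genes followed a rule: the 6 genes, the 2 most abundant shaft keratins and keratin-associated proteins, in each family list up to 2 called genes each way or otherwise the 2 most abundant, and the 3 genes nearest to each member that are not members. The nearest genes had a symbol not starting with LOC. CD24 is the next gene below the members by fold. Beyond the rule, ETNK1, PCYT2, PHYKPL, PDE8A, CITED2, CCNJL, KAP8, KRT38, SHISA2, RPL39 and the skin markers were named after their values were seen. No sequences are shown.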

Additional observations from a re-analysis of the deposited data

Results flagged for a closer look

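ETNPPL in milk goats had 1 library far from the other 3: month 9 at 11.95 CPM, with the others between 0.617 and 2.46 CPM. The gap to the next library was 0.837 of the whole range of CPM, above Dixon's 95% critical value for 4 values, which chance alone exceeds in about 1 of 20 groups, and 12 groups were looked at. That rate assumes repeats of 1 condition, and these 4 values are different months. As log2 CPM they were 0.66, 1.41, 3.60 and -0.30 at months 3, 6, 9 and 12, where the gap is a smaller part of the range. Between months 6 and 12 the breeds moved in opposite directions for 3 genes, each with 1 library per breed and month, and the difference in that contrast was not tested. The log2 change in cashmere goats minus that in milk goats was 2.62 for ETNPPL (0.62 and -2.00), 0.98 for ANXA9 (0.70 and -0.29) and 1.10 for CCNJ (0.23 and -0.87).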

How the results depend on the processing

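The log2 breed difference of the 6 genes went from 0.86 (PPP2R1B, hair shaft keratin level in the model) to 3.28 (ETNPPL, without the milk goat library of month 9). It stayed positive under 119 of 119 alternatives, but the genes were chosen as higher in these libraries, so the sign is part of the choice. It also stayed within 1 SD of the gene's monthly log2 ratios from the main value. That is a wide limit, with SDs of 0.473 (ANXA9) to 1.68 (ETNPPL). The count of genes called between breeds depended on the processing. It was 675 (207 higher, 468 lower), 1117 in the second count table, 1691 with DESeq2, 1191 with limma on log2(FPKM + 1) (870 higher, 321 lower), 346 in a model without month, 318 with the hair shaft keratin level in the model and 1333 with months 6 and 9 only. Library totals gave 302 higher and 317 lower. Leaving out 1 library gave 0 (cashmere goats, month 9) to 869 genes (cashmere goats, month 12). For month, 0 genes were called, 536 with DESeq2, and 0 to 1180 on leaving out 1 library. For month 9 against month 3 the count was 0, 1107 with DESeq2, and 0 to 2027. For month 12 against month 6 it was 0, 94 with DESeq2, and 0 to 452. For breed by season it was 0, 17 with library totals, 118 without the filter, and 38 to 501. DESeq2 was not run for that test. The month call of ETNPPL, ANXA9, CITED4 and PPP2R1B was gained in 8 of 95 fits of the members. The median distance of the members from the hair shaft course was 1.13, and 0.86 in the second table, whose 2 shaft keratins found by symbol differ from the 8 of the first, an alternative chosen after seeing the data. The cause of these shifts was not tested. Depth limits ETNPPL most, with 7 reads in milk goats at month 12.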

Other observations

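CCNJL, the relative of CCNJ, was chosen after its values were seen because the 2 count tables differ on it. In the first table it had 2.75, 1.81, 1.37 and 2.11 CPM in cashmere goats and 3.83, 3.93, 2.30 and 4.05 CPM in milk goats at months 3, 6, 9 and 12. In the second table it had 0.667, 0.278, 0.489 and 0.974 CPM (4 to 14 reads) in cashmere goats and 2.04, 8.07, 30.1 and 1.79 CPM (36 to 629 reads) in milk goats.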
